A study of Drosophila melanogaster with 3 samples.

Results

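Most of the genes described here encode subunits of the Mediator complex and of the general transcription factors of RNA polymerase II. An exception is TfIIS, an elongation factor that was taken in by its symbol. The question was whether the promoters of the genes carried peaks of the protein CG10669. The set was the protein-coding genes of the Ensembl annotation whose symbol begins with MED and a number, with Taf and a number, or with TfII. This rule, which uses names and no measured value, found 49 of the 13945 protein-coding genes, made up of 25 Mediator genes, 15 Taf genes and 9 TfII genes. The assay was ChIP-seq, in which chromatin is sheared, the pieces that carry a chosen protein are pulled down with an antibody, and their DNA is sequenced. Its material was whole prepupae of Drosophila melanogaster, with both sexes pooled, from a transgenic line that stably expressed CG10669 fused at the C-terminus to GFP, the green fluorescent protein. All 3 biological replicates formed 1 group, with no treated, mutant or untagged counterpart. The antibody label names CG10669 and not GFP, so whether untagged CG10669 was recovered as well is not known. The sample descriptions call the libraries an input control, but their assay field and files are those of a ChIP, and they were used as ChIP. The labelled age is not that of a prepupa and was left aside.

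The peak lists were the authors' own. Each replicate had 30000 candidate peaks, a further 30000 came from the pooled reads, and the reproducible list was the outcome of the irreproducible discovery rate (IDR) procedure. A gene counted as bound where the summit of a reproducible peak lay within 500 bp of any of its annotated transcription start sites (TSSs). In each replicate the candidates of highest signal, as many as the reproducible list holds, formed the equal-length list. The deposited signal has a different scale in each list, so a peak is given by its rank in the list, where rank 1 is the highest signal, or by its relative signal, which is its signal over the median of all candidates in that list. Sequencing depth was unknown, and the 3 replicates shared a control file. Whole animals were used, so a peak is an average over all cell types of the prepupa.

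Mediator is a large assembly that passes signals from DNA-bound activators to RNA polymerase II. It is built of head, middle and tail modules around the backbone subunit MED14, with a separable kinase module. The TAF proteins and the TATA-binding protein form TFIID, which recognises core promoters, and TFIIA, TFIIB, TFIIE, TFIIF and TFIIH complete the machinery that places and starts the polymerase. Nearly every cell uses these complexes, and most of their genes are of the housekeeping kind.

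Of the 49 members, 9 were bound in the reproducible list, or 18.4% with a 95% Wilson interval of 9.98 to 31.4%. Among all protein-coding genes, 2145 (15.4%) were bound, a share inside that interval. Mediator genes made up 7 of the 9, namely MED4, MED6, MED10, MED17, MED27, MED30 and MED31, out of 25 Mediator genes (28.0%, interval 14.3 to 47.6%). One further bound member was Taf2, out of 15 Taf genes (6.67%, interval 1.19 to 29.8%), and the other was TfIIA-L, out of 9 TfII genes (11.1%, interval 1.99 to 43.5%). The 3 intervals overlap each other and all hold the share of all genes. These intervals cover counting error over genes only.

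**Figure D1:**
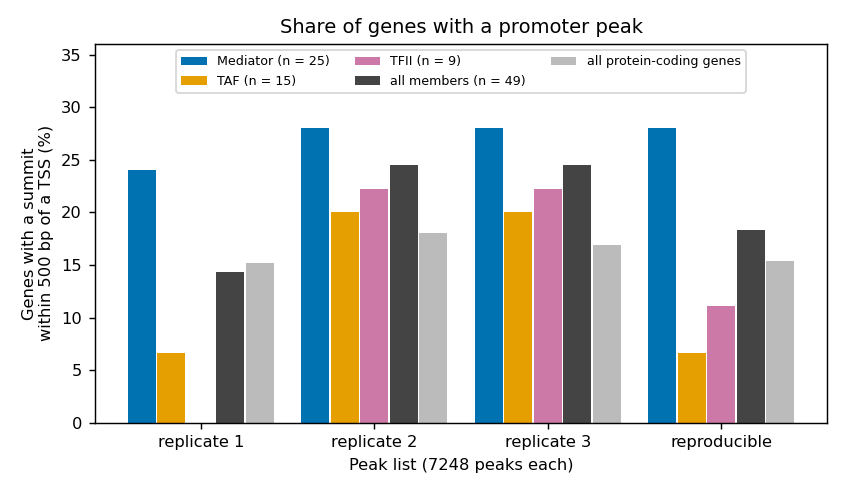
Bars give the share of genes, in percent, with a summit within 500 bp of a TSS in each replicate's equal-length list and in the reproducible list, for Mediator genes, Taf genes, TfII genes, all 49 members and all protein-coding genes. Mediator genes stood at 24.0% in replicate 1 and at 28.0% in the other 3 lists, and all members stood at 14.3 to 24.5%, against 15.2 to 18.0% of all protein-coding genes in the replicates.

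The replicate lists gave the spread of this share. Replicate 1 held 7 members in its equal-length list (14.3%), against 15.2% of all protein-coding genes. Replicate 2 held 12 members (24.5%), against 18.0% of all genes. Replicate 3 also held 12 (24.5%), against 16.9% of all genes. The mean was 21.1 ± 5.89% for the members and 16.7 ± 1.42% for all protein-coding genes (SD, n = 3), so the difference between the means was smaller than the spread of the members' share between replicates. Both shares come from the same list in each replicate, so these SDs do not measure the spread of their difference. Members were above all genes in replicates 2 and 3 and just below them in replicate 1.

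The reproducible summits at MED17, MED27 and MED30 lay in short spaces between the member and a neighbouring gene, in DNA rich in A and T. The sequences of 101 bp centred on the summits are printed as a description for the 4 bound members whose window touched no exon. The choice of members did not use these letters. Any window has a longest run of A and T, and no run length over all peaks is given for comparison. They are the plus strand of the RefSeq Release 6 (dm6) genome, 5′ to 3′, and capitals mark the longest run of A and T, a measure added after the data were seen. At TfIIA-L a second run has the same length, and the first is marked.
MED30: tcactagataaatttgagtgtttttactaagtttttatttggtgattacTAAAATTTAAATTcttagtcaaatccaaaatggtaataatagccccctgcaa
MED27: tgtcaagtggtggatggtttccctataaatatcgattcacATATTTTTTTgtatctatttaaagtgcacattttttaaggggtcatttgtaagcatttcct
MED17: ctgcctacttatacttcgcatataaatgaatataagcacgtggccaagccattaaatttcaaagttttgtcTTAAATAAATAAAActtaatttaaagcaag
TfIIA-L: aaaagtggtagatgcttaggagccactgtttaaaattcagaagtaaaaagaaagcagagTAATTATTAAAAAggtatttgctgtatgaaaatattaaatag
The windows are chr3L:654209-654309 for MED30, chr3R:5654923-5655023 for MED27, chr3R:18188831-18188931 for MED17 and chr3R:27253218-27253318 for TfIIA-L. The first 3 are intergenic and the last is in an intron of TfIIA-L, upstream of an internal TSS. GC content was 26.7% at MED30, 31.7% at MED27, 28.7% at MED17 and 27.7% at TfIIA-L, and the longest A/T runs had 13, 10, 14 and 13 bp in the same order.

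The middle module of Mediator connects the head to the tail and is built of long paired subunits. Of its 9 genes in the set, 3 were bound, MED31, MED4 and MED10. MED31, a small and highly conserved subunit, had ranks 853, 2590 and 3789 in replicates 1, 2 and 3. Its relative signals were 11.7, 4.30 and 3.66, with a mean of 6.55 ± 4.45 (SD, n = 3). Replicate 1 was the high one, and the other 2 were close together. In the reproducible list the peak ranked 1667, had a width of 323 bp on 3R from 4641594 to 4641916, and its summit lay 213 bp upstream of the MED31 TSS, in an intron of CG9775.

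MED4, which pairs with MED9 in the middle module of yeast Mediator, had no candidate of replicate 1 within 500 bp of its TSS. Its ranks were 3173 in replicate 2 and 1881 in replicate 3, with relative signals of 3.65 and 6.30. The pooled reads put the peak at rank 2497 of the reproducible list, on 3L from 7250614 to 7250799. The summit lay 204 bp upstream of the MED4 TSS, in the 3′ UTR exon of the neighbouring gene CG14830, and no other protein-coding gene had a TSS within 500 bp. Both replicate summits were within 2 bp of each other.

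MED10, a middle subunit conserved from yeast to animals, had the weakest peak of the 9. Replicate 1 had it at rank 3850 and replicate 3 at rank 12828, outside the equal-length list, while replicate 2 had no candidate there. Relative signals were 3.75 in replicate 1 and 1.18 in replicate 3, the last close to a median candidate. The reproducible rank was 6422, near the end of the list, and the summit lay 3 bp downstream of the TSS, in the 5′ UTR. A TSS of PDCD-5, on the opposite strand, was 49 bp from the summit.

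The head module makes the main contact with the polymerase, and 2 of its 7 genes in the set, MED17 and MED6, were bound. MED17, the scaffold subunit of the head, had ranks 856, 1469 and 4037 in replicates 1, 2 and 3. Its relative signals were 11.7, 6.34 and 3.48, with a mean of 7.16 ± 4.14 (SD, n = 3). The 3 values were spread widely, replicate 1 being the highest. The peak ranked 1612 in the reproducible list, on 3R from 18188711 to 18189141, with the summit 191 bp upstream of MED17 and 174 bp upstream of CG12321 on the other strand.

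MED6, a head subunit that faces the middle module, had no candidate of replicate 1 but nearly equal ranks in the other replicates, 2762 in replicate 2 and 2729 in replicate 3. Relative signals were 4.06 and 4.81. Its peak had reproducible rank 3348, on 3R from 9768269 to 9768678. The summit lay 28 bp downstream of an internal TSS of MED6, in the 5′ UTR, and the gene Naa80 also spans it. Further TSSs of MED6 lay 220 and 364 bp on the downstream side of the summit. At MED6 and MED10 the summit lay downstream of the nearest TSS of the member itself, and at the other 7 bound members upstream of it.

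MED27, MED28 and MED30 are placed in the head or the tail depending on the structure, and 2 of these 3 genes, MED30 and MED27, were bound. MED30, which has no known counterpart in budding yeast, had the highest reproducible rank of all members, 917. It stood at ranks 838, 1085 and 1067 in replicates 1, 2 and 3, with relative signals of 11.8, 7.64 and 9.15 and a mean of 9.52 ± 2.09 (SD, n = 3). This was the member with the narrowest spread of ranks among those found in all 3 equal-length lists. The peak lay on 3L from 654090 to 654407, with the summit 170 bp upstream of MED30 and 104 bp upstream of Rev1, which encodes a translesion DNA polymerase.

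MED27 ranked 1302 in the reproducible list and 959, 1386 and 2450 in replicates 1, 2 and 3. Relative signals were 10.9, 6.59 and 5.18, with a mean of 7.57 ± 3.00 (SD, n = 3). The mean lay below that of MED30 by less than either SD. The summit was 166 bp upstream of MED27 and 112 bp upstream of elm, in a peak on 3R from 5654890 to 5655176. None of the 5 tail genes (MED15, MED16, MED23, MED24 and MED25) was bound in the reproducible list, and neither was MED14. Counts per module rest on 1 to 9 genes each, beside 15.4% of all protein-coding genes bound.

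Among the TFIID genes, Taf2 encodes a subunit that, with Taf1, contacts the initiator element around the TSS. Its ranks were 693, 2807 and 3610 in replicates 1, 2 and 3. Relative signals were 13.1, 4.02 and 3.81, with a mean of 6.99 ± 5.33 (SD, n = 3). Taf2 had the highest single value of any bound member, in replicate 1, and about the level of MED31 in the other replicates. The peak, on 3L from 9888899 to 9889128 with rank 1552, had its summit 255 bp upstream of the Taf2 TSS. That summit lay in a 5′ UTR exon of CalpB, a calpain protease gene, between 2 of its TSSs at 166 and 176 bp.

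TfIIA-L encodes the precursor of the large TFIIA subunits, which hold the TATA-binding protein on DNA. It had no candidate of replicate 1, and ranks of 3517 in replicate 2 and 3755 in replicate 3 with relative signals of 3.39 and 3.69. Replicates 2 and 3 were thus nearly level. In the reproducible list it ranked 2507, on 3R from 27253147 to 27253351, with the summit 162 bp upstream of an internal TSS and 86 bp upstream of pll, which encodes the Pelle kinase of the Toll pathway.

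**Figure D2:**
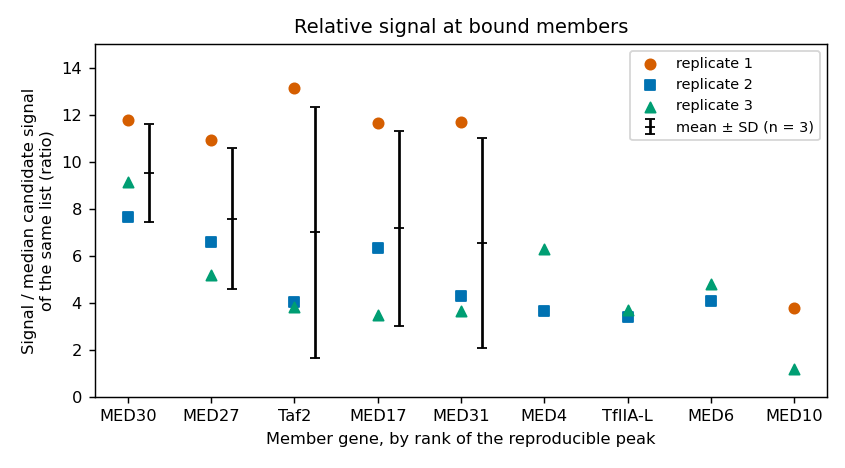
Relative signal (signal over the median candidate of its list) is plotted for the 9 bound members in each replicate, with the mean ± SD beside those found in all 3. In the 5 members with 3 values the replicate 1 point is the highest, from 10.9 at MED27 to 13.1 at Taf2, while MED4, TfIIA-L and MED6 have no replicate 1 point.

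In order of mean relative signal the 5 members found in all 3 equal-length lists ran MED30, MED27, MED17, Taf2 and MED31, and every neighbouring pair differed by less than its SDs. Without replicate 1 the mean of Taf2 was 3.91 and that of MED31 was 3.98, which turns their order round, while MED30 had 8.39, MED27 5.88 and MED17 4.91. These 5 were 10.2% of the members, against 10.7% of all protein-coding genes. All 5 had their best rank in replicate 1, as did 809 of the 1486 protein-coding genes (54.4%) found in all 3 lists. Replicates 2 and 3 together held 11 members (22.4%), against 14.0% of all genes. Of the reproducible peaks at members, 8 were also in both equal-length lists of replicates 2 and 3, while 5 were in both lists that remained without replicate 2 or without replicate 3. MED4, MED6 and TfIIA-L were in the equal-length lists of replicates 2 and 3 alone, and MED10 in that of replicate 1 alone.

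Summits of the same member lay 2 to 121 bp apart across the replicates that had one, farthest apart at Taf2. Compared with all bound genes, the reproducible peaks at members had a median signal of 562 (175 to 838), against 395 (155 to 6844), and a median rank of 1667, against 2654. They had a median width of 318 bp, against 396 bp. No member had a reproducible rank above that of MED30, 917.

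**Figure D3:**
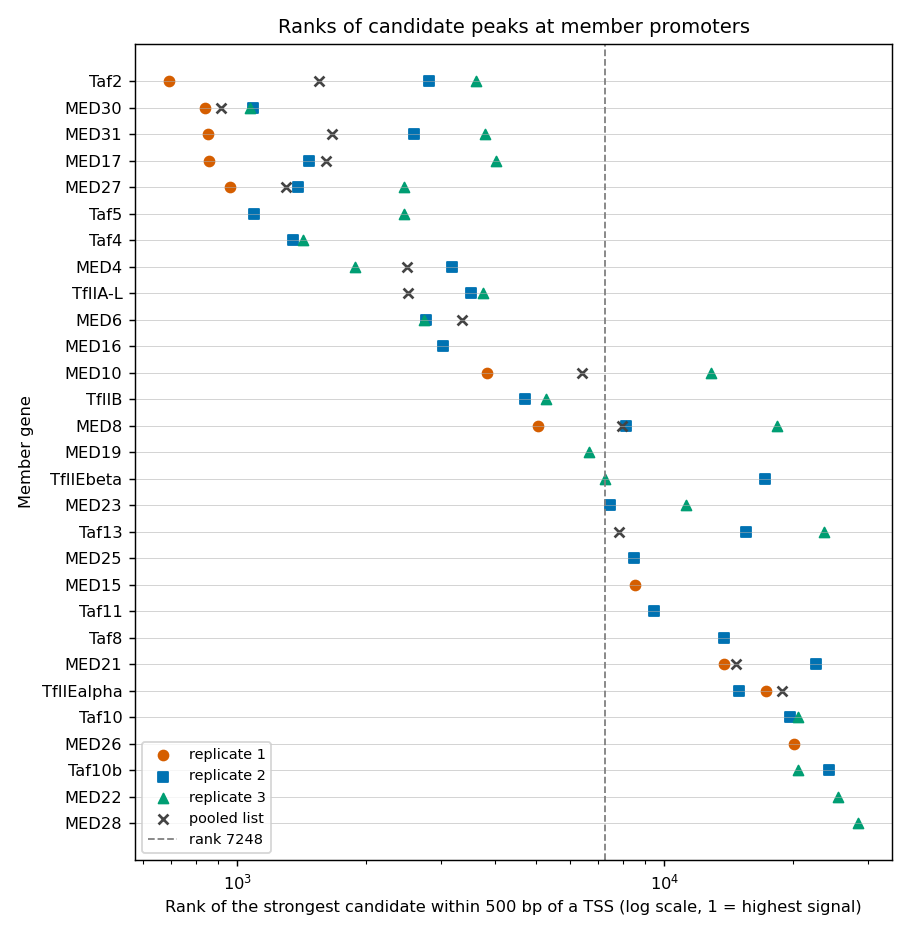
The rank of the strongest candidate within 500 bp of a TSS is plotted on a log axis for the 29 members with a candidate in any list, in each replicate and in the pooled list, with a dashed line at the last rank of the equal-length list. Taf4, Taf5 and TfIIB have points left of the line in replicates 2 and 3 and no point for replicate 1 or the pooled list.

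Outside the reproducible list, Taf4, Taf5 and TfIIB stood apart. Taf4 encodes a core TFIID subunit that pairs with Taf12 through a histone fold. It had rank 1349 in replicate 2 and 1425 in replicate 3, with relative signals of 6.72 and 7.58, which were higher than those of Taf2 in the same replicates. The summits lay inside the gene, at −148 and −152 bp from an internal TSS of Taf4. TfIIB, the factor that bridges the TATA-binding protein and the polymerase, had ranks 4714 and 5277 in replicates 2 and 3, relative signals of 2.67 and 2.79, and summits at −348 and −355 bp. Neither gene had any candidate of replicate 1 or of the pooled list within 500 bp. The summit sequences of replicate 2 are printed to set them beside those of the bound members, in the same form. The sequence at Taf5 is not analysed here.
Taf4: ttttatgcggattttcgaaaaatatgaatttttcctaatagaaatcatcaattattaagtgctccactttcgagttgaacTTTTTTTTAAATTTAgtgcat
TfIIB: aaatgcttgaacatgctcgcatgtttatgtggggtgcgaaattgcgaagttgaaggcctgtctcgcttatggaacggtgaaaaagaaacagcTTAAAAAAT
The windows are chr3L:16113592-16113692, in an intron of Taf4, and chr2L:10430940-10431040, between genes. Taf4 had 25.7% GC and an A/T run of 15 bp, and TfIIB had 41.6% GC and a run of 9 bp that reached the end of the window.

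Taf5 encodes the WD40-repeat scaffold of the TFIID core. Its ranks were 1092 in replicate 2 and 2455 in replicate 3, with relative signals of 7.61 and 5.17 and summits at −203 and −261 bp, and it too had no candidate of replicate 1 or the pooled list. With Taf4 and TfIIB it made 3 members (6.12%) that were in both equal-length lists of replicates 2 and 3 and had no candidate in the other 2 lists, against 214 protein-coding genes (1.53%). This category was defined after these 3 genes were seen, so its share is a description of them. Replicate 1 had a candidate at fewer promoters than the other replicates, among members and among all genes. With all candidates counted, 11, 23 and 21 members had one in replicates 1, 2 and 3 (22.4, 46.9 and 42.9%), against 29.1%, 40.0% and 37.3% of all protein-coding genes. What part the difference between replicates had in these 3 genes was not tested.

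A further 3 members appeared in a single equal-length list. MED16, a tail subunit, had rank 3030 in replicate 2 with a relative signal of 3.79. MED19, a middle subunit, had rank 6663 in replicate 3 with a relative signal of 2.26. MED8, a head subunit, had rank 5045 in replicate 1 with a relative signal of 2.92. It was weaker in the others, at rank 8147 with 1.67 in replicate 2 and rank 18317 with 0.800 in replicate 3. The summits lay at −374, −402 and −119 bp in replicates 1, 2 and 3, so that of replicate 3 may be another peak. In all, 15 members (30.6%) were in at least 1 equal-length list, against 23.3% of all protein-coding genes.

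The pooled list of 30000 candidates held 13 members (26.5%), against 30.5% of all genes, and thus 4 beyond the reproducible 9. Taf13, whose product pairs with Taf11 in TFIID, ranked 7841 with a relative signal of 2.04. MED8 ranked 7939 with 2.02, MED21 ranked 14726 with 1.02, and TfIIEalpha, the large subunit of TFIIE, ranked 18844 with 0.764. MED10, at rank 6422, was the last member inside the reproducible list and Taf13 the first outside it. On the distance side, Taf2 at 255 bp was the farthest summit inside the limit of 500 bp, and the next member, MED15, had its nearest reproducible summit 545 bp from a TSS.

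No list held a candidate within 500 bp for 20 members (40.8%), against 48.6% of all protein-coding genes. These were 8 Mediator genes (MED1, MED7, MED9, MED11, MED14, MED18, MED20 and MED24), 7 Taf genes (Taf1, Taf3, Taf6, Taf7, Taf9, Taf12 and Taf12L) and 5 TfII genes (TfIIA-S, TfIIA-S-2, TfIIFalpha, TfIIFbeta and TfIIS). The list includes the largest TFIID subunit gene, Taf1, and TfIIA-S, the small subunit partner of the bound TfIIA-L. The other members had candidates beyond the equal-length limit in every list that held one. Taf10 and Taf10b, whose start sites are 45 bp apart, shared a candidate in replicate 3 at rank 20578.

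A reproducible summit inside the gene body but outside every promoter window was found for 0 of 49 members, against 9.82% of all protein-coding genes. A count of 0 allows a share of up to 6.12% by 3 counts and 7.27% by the Wilson interval. Members were short genes, with a median length of 1330 bp (543 to 10463), against 2166 bp for all protein-coding genes, and the part of gene length in that count was not tested. A single TSS was annotated for 43 of 49 members and 10246 of 13945 genes.

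Most summits were on the upstream side, at 7 of 9 bound members and at 1770 of all 2145 bound genes. The median position was −170 bp at members and −154 bp at all bound genes. Of the 9 bound members, 7 (77.8%) had the summit 100 to 300 bp upstream of the nearest of their TSSs, against 1062 of 2145 bound genes (49.5%). The limits of 100 and 300 bp were not part of the plan, and they hold every upstream summit of the members. Of these 7 upstream summits, those at MED17, MED27 and MED30 fell between divergent genes, while those at MED4, MED31, Taf2 and TfIIA-L lay inside an annotated gene. A head-to-head partner, a gene on the opposite strand with its TSS at most 1000 bp away and no overlap, was present for 34 of 49 members (69.4%), against 33.3% of all protein-coding genes. The 34 pairs of start sites were 45 to 899 bp apart, with a median of 266.5 bp. Bound and other members had partners at like shares, 7 of 9 and 27 of 40 (67.5%), and among all bound genes 983 of 2145 (45.8%) had one. A partner did not always mark the place of the peak. At TfIIA-L the counted partner, TTLL6B, faced a different TSS from the one near the peak.

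The summit was often nearer to the TSS of another gene. When each summit counted for the nearest TSS alone, 3 members remained bound, MED4, MED6 and MED10 (6.12%), against 12.2% of all protein-coding genes. Seen this way the peaks above MED17, MED27, MED30, MED31, Taf2 and TfIIA-L belonged to CG12321, elm, Rev1, CG9775, CalpB and pll. At MED31 the TSS of slx1, which encodes an endonuclease subunit, coincided with that of MED31 at the same 213 bp. ChIP-seq peaks of this width cannot tell which of a pair of divergent genes a protein acts on.

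**Figure D4:**
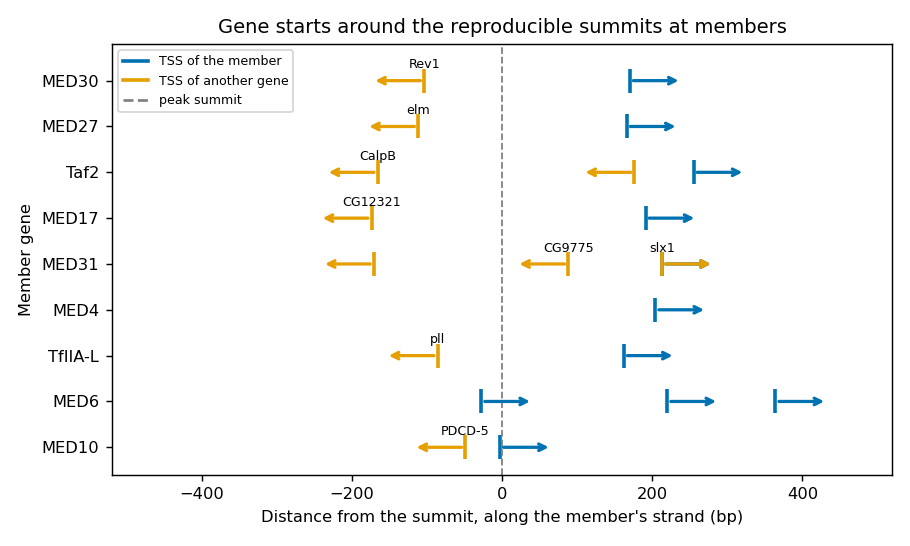
Start sites of protein-coding genes within 500 bp of each reproducible summit at a member are drawn by distance from the summit in bp along the member's strand, with arrows for the direction of transcription, the member in blue and other genes in orange. At 7 of 9 members the start site lies 162 to 255 bp to the right of the summit, and at 6 of these 7, all but MED4, a start site on the opposite strand lies 86 to 174 bp to the left.

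DNA under the summits was low in GC. In the 201 bp at the summit the bound members had a median GC content of 31.3% (17.9 to 43.8%), against 34.8% at all 1963 promoter peaks and 34.3% at all reproducible peaks. The flanking windows centred 500 bp away had medians of 50% at members, 43.8% at promoter peaks and 43.3% at all peaks. The summit was below its own flanks at 9 of 9 members, with a median difference of −21.9 percentage points, against 1456 of 1963 promoter peaks with a median difference of −8.21. Taf2 had the lowest summit, at 17.9% with flanks of 50%, and MED17 the largest drop, at 21.9% with flanks of 60.0%. MED6 differed least, at 43.8% with flanks of 45.8%. Base composition can alter how well a fragment is amplified and sequenced, and its part in these peaks was not tested.

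**Figure D5:**
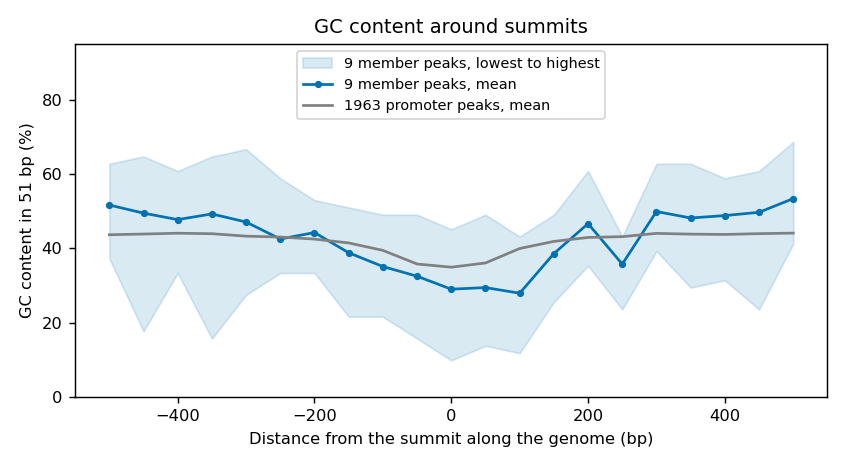
Mean GC content in steps of 50 bp is plotted in percent against distance from the summit along the genome, for the 9 peaks at members (blue, with the lowest to highest value shaded) and for all 1963 promoter peaks (grey). At the summit the members average 29.0% and the promoter peaks 34.9%, and 500 bp to the left they average 51.6% and 43.6%.

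Sequence motifs of core and proximal promoters were counted on both strands from 250 bp before to 50 bp after the main TSS, a window of 300 bp. GGTCACACT, known as Ohler motif 1 and bound by the protein M1BP at housekeeping promoters, was in 12 of 49 member promoters (24.5%), against 818 of 13944 (5.87%). Among the bound members it was in that of MED10 alone, and among the other 40 members in 11. TATCGATA, the element of the factor DREF, was in 9 of 49 (18.4%), against 8.94% of all promoters, with MED17 as the 1 bound member. The GAGAG repeat unit of GAGA factor sites was in 7 member promoters (14.3%), against 30.2%, and the initiator letters TCAGT in 14 (28.6%), against 51.8%. TATAAA was in 23 (46.9%), against 45.3%, and the E-box CAGCTG in 8 (16.3%), against 17.9%. GGTCACACT and TATCGATA thus had a higher share at members than at all promoters, and GAGAG and TCAGT had a lower one. GGTCACACT and TATCGATA were each in 1 of 9 bound member promoters, too few to set against the other 40 members.

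CAGTGNA was added after the data were seen, because such letters were in excess at all reproducible summits, and its first 4 letters overlap the end of TCAGT. It was in 23.8% of the 201 bp windows at all reproducible summits and in 11.1% of the flanking windows. None of the 9 summit windows at members held it, and none of the 9 bound member promoters did. Over all 49 member promoters it was in 8 (16.3%), against 13.9% of all promoters. TATAAA was in 4 of 9 member summit windows, at MED17, MED27, MED31 and Taf2, against 35.9% of all. A match is a description of letters in a window and is not evidence of binding.

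By chromosome, the bound members were on 3L (4 of 14 members, against 16.5% of all protein-coding genes there) and 3R (5 of 14, against 15.3%). None was bound of 9 members on 2L, against 15.1% of all genes there, of 5 on 2R, against 12.9%, of 2 on chromosome 4, against 11.3%, or of 5 on X, against 17.9%. With 9 genes over 6 chromosome arms these counts are small.

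Other genes of the same machinery, whose symbols the rule does not take in, were counted in 6 lists, where 46 of 47 listed genes matched the annotation and 8 were bound (17.4%), against 15.4% of all protein-coding genes. TFIIH, the factor that opens the promoter, had 1 bound gene of 10. It was Ssl1, at reproducible rank 14 with a mean relative signal of 48.0 ± 4.59 (SD, n = 3), far above every member. The TATA-binding protein family with its RNA polymerase III partners had 3 bound genes of 5. Tbp, the gene of the TATA-binding protein itself, and Trf had no candidate within 500 bp in any list. Trf2, the TBP-related factor 2 gene, ranked 196 with 20.0 ± 10.5, Bdp1 ranked 297 with 17.0 ± 10.2, and Brf ranked 429 with 14.3 ± 6.33 (SD, n = 3 each). Bdp1 and Brf encode TFIIIB subunits that work with RNA polymerase III. All 3 had a higher reproducible rank than MED30.

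The polymerase itself had 2 bound genes of 12, Polr2B at rank 925 with 9.43 ± 5.31 and Polr2H at rank 1989 with 5.83 ± 0.670 (SD, n = 3 each). These levels were close to the 9.52 of MED30 and the 6.55 of MED31. Pausing and elongation factors had 1 of 11, Nelf-E, which encodes a subunit of the negative elongation factor, at rank 1199 with 8.55 ± 0.889 (SD, n = 3). The Mediator kinase module had 1 of 4, skd, the MED13 gene, at rank 5111, and the 4 testis TAF genes had 0. The summits at Trf2 and skd lay at −449 and −458 bp from the TSS, near the limit of 500 bp. Whether another gene had a nearer TSS is not given for any bound gene of the 6 lists.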

How the data were processed

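ChIP-seq peaks of 3 biological replicates were used as deposited. Per the file headers, the authors called 30000 candidates on each replicate's alignments against a shared control file and 30000 on the pooled alignments, and took 7248 reproducible peaks from the IDR step, in dm6 coordinates. Peak caller, aligner and IDR threshold were not given in the sources used here. For each peak, the deposited signal is the caller's value, scaled differently in each list. The deposited −log10 q-value was tied at 4.24 for all reproducible peaks and was not used for ranking. The reproducible peaks were the 7248 pooled candidates of highest signal, which was checked.

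Members were found by symbol in Ensembl release 115. Distances ran from summit to TSS. The strongest summit within 500 bp of a TSS gave the relative signal of a gene in a list (Python 3.11.15, pandas 2.3.3, pysam 0.24.0). For the 9 bound members, replicate summits within 200 bp of the reproducible summit gave the same values. The distance step was tested on simulated data. With 1 group there was no test between groups. Depth is unknown, so no interval on a signal was computed. The members, gene lists, motifs and the rule for named genes (bound members, members in any equal-length list, the strongest pooled candidates, genes sharing their peaks, bound pathway genes) were chosen with earlier results of these data known. The members and lists are compared with all genes by counts and shares. Module assignments of Mediator subunits are background.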

Additional observations from a re-analysis of the deposited data

How the results depend on the processing

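The count of 9 bound members (18.4%, against 15.4% of all genes) was 8 with a TSS window of 250 bp (16.3%, against 11.3%), 10 with 1000 bp (20.4%, against 19.1%) and 10 with peak overlap in place of the summit (20.4%, against 16.8%). It was 9 with the main TSS of each gene (18.4%, against 12.6%) and 8 among the peaks of above-median signal (16.3%, against 9.80%). It was 5 for peaks held by all 3 equal-length lists (10.2%, against 10.4%), 3 with the nearest TSS only (6.12%, against 12.2%), and 5 to 8 when a replicate was left out. Without replicate 1 it was 8 (16.3%, against 12.0%), and without replicate 2 it was 5 (10.2%, against 11.2%), as without replicate 3 (10.2%, against 11.4%). Members were thus above all genes in some settings and below in others. With the lists of replicates 2 and 3, an alternative chosen after seeing the data, the count was 11 (22.4%, against 14.0%). The 7 Mediator genes became 4 in all 3 lists (16.0%, against 10.4% of all genes) and 3 with the nearest TSS (12.0%, against 12.2%). They became 4 to 6 without 1 replicate (16.0 to 24.0%, against 11.2 to 12.0%). The 1 Taf gene became 0 at 250 bp (against 11.3% of all genes) and with the nearest TSS (against 12.2%). It became 3 with replicates 2 and 3 (20.0%, against 14.0%). The 1 TfII gene became 0 in all 3 lists (against 10.4% of all genes) and with the nearest TSS (against 12.2%). It became 0 to 1 without 1 replicate (0 to 11.1%, against 11.2 to 12.0%), and 2 with replicates 2 and 3 (22.2%, against 14.0%). The mean share of members in the replicate lists, 21.1%, was 37.4% with all candidates, against 35.5% of all genes. That mean was 24.5% without replicate 1 (against 17.5% of all genes), 19.4% without replicate 2 (against 16.0%) and 19.4% without replicate 3 (against 16.6%). By construction, the count of 9 could not rise with 250 bp, the main TSS, above-median peaks, all 3 lists or the nearest TSS. Nor could it rise with a replicate left out, because only reproducible peaks were kept. It could not fall with 1000 bp or with peak overlap. The same holds for the Mediator, Taf and TfII counts. The cause of the other changes was not tested. Dividing by the median of the equal-length list lowers every relative signal, since that median is higher. No paired comparison between groups was possible because the series holds 1 group. Depth is unknown, so a missing candidate cannot be told from a weak one.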
